A study of Mus musculus with 4 samples.

Results

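The chemokine genes *Ccl3*, *Ccl4*, *Ccl5* and *Xcl1* were followed across cell classes, T cell clones and both libraries of a droplet experiment on hepatic CD4+ T cells. They were chosen by symbol, and all 4 were found once among the 32285 genes of each count table. The study asked how Nr4a1 and Nr4a2, nuclear receptors induced by T cell receptor signals, act in T cells of the steatotic, inflamed liver. One library came from WT mice and the other from dKO mice (Nr4a1 fl/fl Nr4a2 fl/fl with Cd4-Cre, in which both genes are deleted in T cells from the CD4 and CD8 double-positive thymocyte stage on). Each library pooled the liver CD4+ T cells of 2 male mice fed CD, a choline-deficient diet with 60 kcal% fat and 0.1% methionine, for 8 weeks. The age at the start of the diet is not given for these mice in the sources used here. RNA and T cell receptors (TCRs) were sequenced from the same droplets with a 5′ kit. With 1 library per genotype there are no replicates, so no test between genotypes was run. All intervals are exact 95% intervals that cover counting error only, not differences between mice or preparations.

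Chemokines are small secreted proteins that draw cells bearing their receptors along a gradient. *Ccl3*, *Ccl4* and *Ccl5* encode CC chemokines that attract T cells and macrophages. Ccl3 and Ccl5 bind Ccr1, and Ccl5 also binds Ccr3. *Xcl1* encodes lymphotactin, the ligand of Xcr1, which is carried by cross-presenting dendritic cells. Activated T cells and NK cells make all of these transcripts, and macrophages and dendritic cells make *Ccl3* and *Ccl4* as well. *Ccl5* is typical of T cells that have met antigen before, and naive T cells are low in it.

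The libraries hold 10602 (WT) and 17645 (dKO) cells with 23494155 and 37966611 unique molecular identifiers (UMIs, each counting 1 captured RNA molecule), of which 10556 and 17462 cells passed the filters. Cells were put into classes by marker gates, and 7664 and 11950 were T cells, with medians of 1723.5 and 1369 UMIs. A productive TRA and TRB pair was found in 26.7% and 18.3% of them. The labels were checked first by the targeted genes. *Nr4a1* was at 731 CPM (UMIs of the gene per 1000000 UMIs of the same cells) in the T cells labelled WT and 1941 CPM in those labelled dKO, and *Nr4a2* at 202 and 439 CPM. Both go against the labels, although the tables count UMIs per gene and do not show whether the deleted exons are present. The names "library labelled WT" and "library labelled dKO" are therefore kept in what follows. The libraries share 245 cell barcodes. *Cd4* itself was at 252 and 874 CPM in the T cells, and *Cd8a* had 1 UMI in the T cells of the library labelled WT.

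*Ccl3* (ENSMUSG00000000982) lies at chr11:83647844-83649355 on the minus strand of GRCm38 and *Ccl4* (ENSMUSG00000018930) at chr11:83662584-83664683 on the plus strand, with 13228 bases between them. *Ccl5* (ENSMUSG00000035042) lies on the same chromosome at chr11:83525778-83530518 on the minus strand. *Xcl1* (ENSMUSG00000026573) lies apart from them at chr1:164931644-164935527 on the minus strand, where it overlaps the plus-strand gene *Gm20743*. Whether the counting used strand is not given in the sources used here, so UMIs of these 2 genes cannot be told apart with certainty. Each of the 4 genes has 3 exons in its longest GENCODE M21 model. Promoters, from 250 bases before to 50 after the start in RefSeq on GRCm38.p6, are shown because the deleted receptors bind a short DNA element (NBRE). *Ccl3* and *Xcl1* matched an entry of the promoter table, and *Ccl4* and *Ccl5* matched none. Capitals mark the match of the NFAT core letters GGAAAA, on the opposite strand.
*Ccl3* promoter, chr11:83649329-83649628, minus strand: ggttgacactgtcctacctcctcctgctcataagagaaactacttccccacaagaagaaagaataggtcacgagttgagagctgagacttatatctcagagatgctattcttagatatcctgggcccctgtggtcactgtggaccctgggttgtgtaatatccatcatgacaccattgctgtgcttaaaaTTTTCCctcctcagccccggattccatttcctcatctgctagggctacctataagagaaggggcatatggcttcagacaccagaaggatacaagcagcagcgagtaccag
*Xcl1* promoter, chr1:164935473-164935772, minus strand: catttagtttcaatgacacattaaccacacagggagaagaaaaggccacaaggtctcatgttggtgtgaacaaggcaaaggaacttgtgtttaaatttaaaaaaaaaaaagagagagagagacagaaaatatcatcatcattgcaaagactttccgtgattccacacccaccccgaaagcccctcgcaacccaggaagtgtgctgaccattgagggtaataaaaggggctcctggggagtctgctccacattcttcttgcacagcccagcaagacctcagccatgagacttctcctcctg
Both strands were searched for 5 motifs. The NBRE (AAAGGTCA) was in neither window and in 1.70% of the promoters of 27025 genes. The AP-1 element (TGACTCA, 5.95% of genes), the CRE (TGACGTCA, 2.03%) and TATAAA (15.7%) were in neither window. The NFAT core (GGAAAA, 26.1%) was found once in the *Ccl3* window, 60 bases before the start, and not in that of *Xcl1*. These counts describe the letters of these windows only.

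The 4 genes differed in where their RNA was found, and the T cells were the main source of only *Ccl5* and *Xcl1*. T cells made up 72.6% and 68.4% of the kept cells and held 85.8% and 87.1% of all *Ccl5* UMIs. They held 76.5% and 62.6% of the *Xcl1* UMIs. In contrast, they held 8.58% and 18.8% of the *Ccl3* UMIs and 2.87% and 6.61% of the *Ccl4* UMIs. Cells with markers of plasmacytoid dendritic cells (pDC-like, such as *Siglech*) were 14.0% and 20.6% of the kept cells and held 80.3% and 79.7% of the *Ccl4* UMIs and 70.3% and 64.6% of the *Ccl3* UMIs. Thus a T cell origin of *Ccl3* and *Ccl4* could not be taken from their totals.

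**Figure D1:**
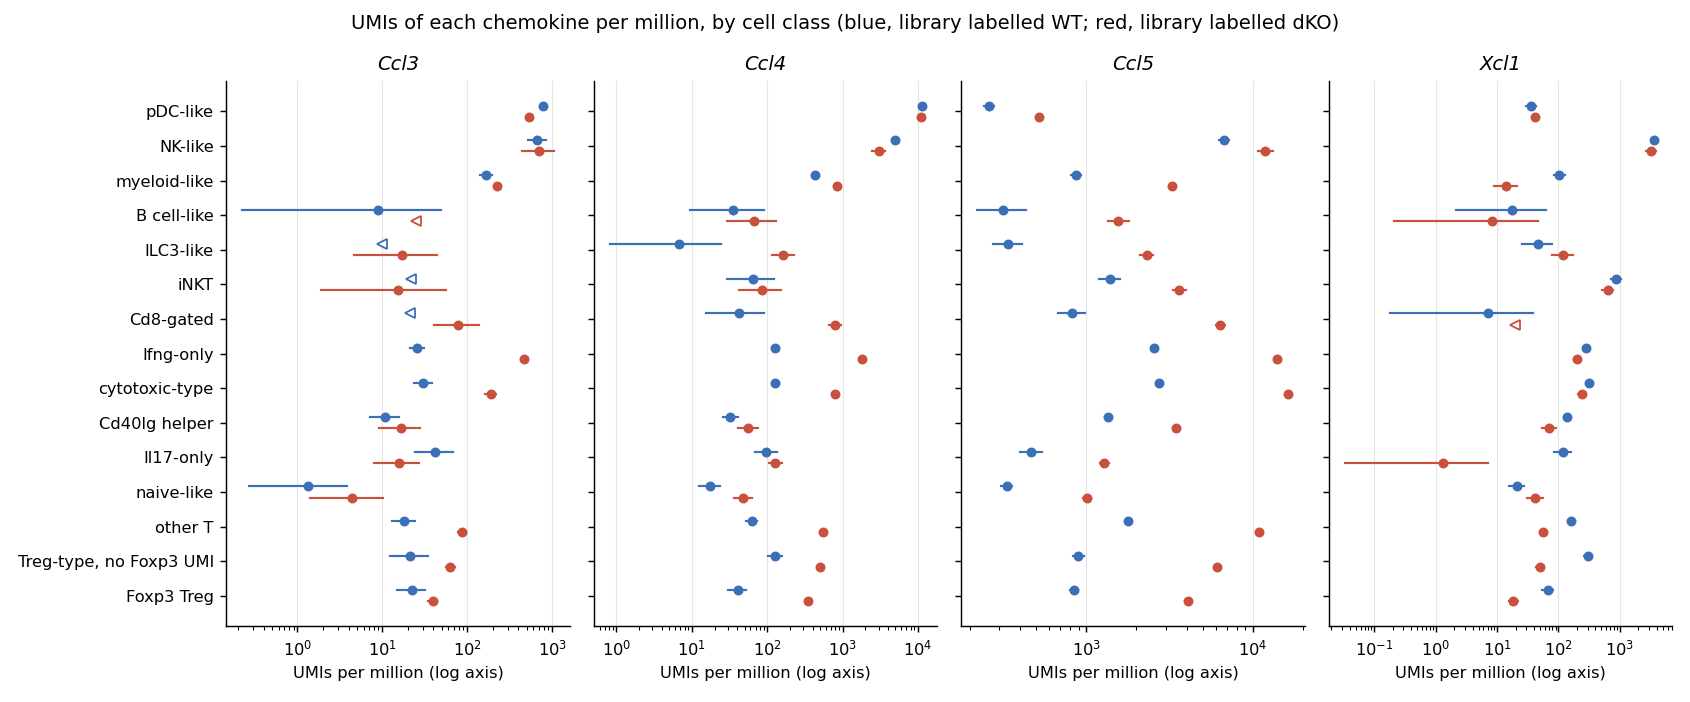
Level of each chemokine gene in CPM (log axis) by cell class, for the library labelled WT and the library labelled dKO, as points with exact 95% Poisson intervals. Open triangles stand for classes with 0 UMIs and are drawn at the level of 3 UMIs. *Ccl4* was highest in pDC-like cells of both libraries, at 11162 and 11069 CPM, and *Ccl5* in T cell classes was higher in the library labelled dKO.

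In pDC-like cells *Ccl4* was at 11162 CPM (WT) and 11069 CPM (dKO), and *Ccl3* at 782 and 538 CPM. These levels lay above those of every T cell class. *Ccl5* was at 263 and 518 CPM there, below all T cell classes with at least 50 cells, and *Xcl1* at 35.4 and 42.1 CPM. NK-like cells (62 and 15 cells without a receptor contig or a CD3 gene UMI) had all 4 transcripts, with *Ccl4* at 4920 and 3032 CPM, *Ccl5* at 6707 and 11840 CPM, *Xcl1* at 3629 and 3223 CPM and *Ccl3* at 668 and 702 CPM. Their *Xcl1* level was the highest of any class in both libraries.

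Among T cells of the library labelled WT, the order of *Ccl5* was cytotoxic-type cells (a UMI of *Fasl* or *Klrk1*, 2730 CPM), Ifng-only cells (a UMI of *Ifng* and none of *Foxp3*, *Il17a* or *Il17f*, 2555 CPM), the T cells in no other class (1786 CPM), iNKT cells (defined by their receptor, 1387 CPM) and Cd40lg helper cells (1343 CPM). The last pair did not differ beyond counting error. Treg-type cells without a *Foxp3* UMI (895 CPM), Foxp3 Tregs (at least 1 *Foxp3* UMI, 847 CPM) and Cd8-gated cells (a UMI of *Cd8a* or *Cd8b1* and none of *Cd4*, 824 CPM) followed, and did not differ beyond counting error between neighbours. The Cd8-gated cells (63 and 84) had 0 and 4 UMIs of *Cd8a* and *Foxp3* at 77.5 and 315 CPM, so they are called by their gate and not as CD8 T cells. Il17-only cells (469 CPM) and naive-like cells (333 CPM) were lowest. For the library labelled dKO the order again began with cytotoxic-type (16255 CPM) and Ifng-only cells (14003 CPM) and ended with Il17-only (1285 CPM) and naive-like cells (1016 CPM).

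The order of *Xcl1* was led by iNKT cells in both libraries, at 874 CPM (121 UMIs in 50 cells) and 635 CPM (82 UMIs in 55 cells). Cytotoxic-type cells followed at 314 and 240.4 CPM. Ifng-only cells, at 277 and 202 CPM, were close to them. *Xcl1* in Foxp3 Tregs was 67.7 and 18.5 CPM. The Tregs labelled dKO were below naive-like cells, whose 48 UMIs of *Xcl1* (41.9 CPM) came from 10 cells. *Ccl3* was at 41.9 CPM or below in every T cell class of the library labelled WT, and its order among neighbours there was mostly within counting error. In the library labelled dKO it was highest in Ifng-only cells, at 460.5 CPM, followed by cytotoxic-type cells at 189 CPM.

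Free RNA in the droplets was judged in naive-like cells (at least 2 genes of a naive marker list that includes *Ccr7*, *Lef1*, *Tcf7*, *S1pr1*, *Dapl1* and *Igfbp4*, with no UMI of *Cd44* or *Cxcr6*). Each cell was thinned to 1000 UMIs, which dropped the cells below that depth (108 of 1158 and 92 of 712). *Ccl5* was then found in 11.9% (10.0 to 14.0) of the WT and 15.2% (12.4 to 18.2) of the dKO naive-like cells. *Ccl4* was found in 1.24% and 4.35%, *Xcl1* in 1.81% and 1.29%, and *Ccl3* in 0 of 1050 cells, which allows a share of up to 0.286% (3 cells), and in 0.484%. Without thinning the shares were 14.8% and 17.3% for *Ccl5*, 2.59% and 5.90% for *Ccl4*, 2.25% and 1.4% for *Xcl1* and 0.17% and 0.70% for *Ccl3*, at medians of 1782 and 1492 UMIs. When 3 naive markers were asked for, the share with *Ccl5* was 7.97% and 12.0%. B cell-like cells, which are not expected to make *Ccl5*, had it in 20% (8.44 to 36.9) of 35 and 35.1% (20.2 to 52.5) of 37 thinned cells. They also held T cell transcripts, with *Cd3e* at 334 and 242 CPM (920 and 1220 CPM over all T cells). The source of their *Ccl5* was not tested. Over all kept cells there were 1.4 and 0.987 *Ccl4* UMIs per *Ccl5* UMI. Naive-like cells had 0.0526 and 0.0473, nearer to 0.0468 and 0.0749 over all T cells, and below the latter in the library labelled dKO. *Ccl3* per *Ccl4* UMI, from 3 and 5 UMIs of *Ccl3*, was 0.075 and 0.0909 in naive-like cells, nearer to 0.0801 and 0.06 over all kept cells than to 0.239 and 0.17 over all T cells. The source of these UMIs was not tested.

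**Figure D2:**
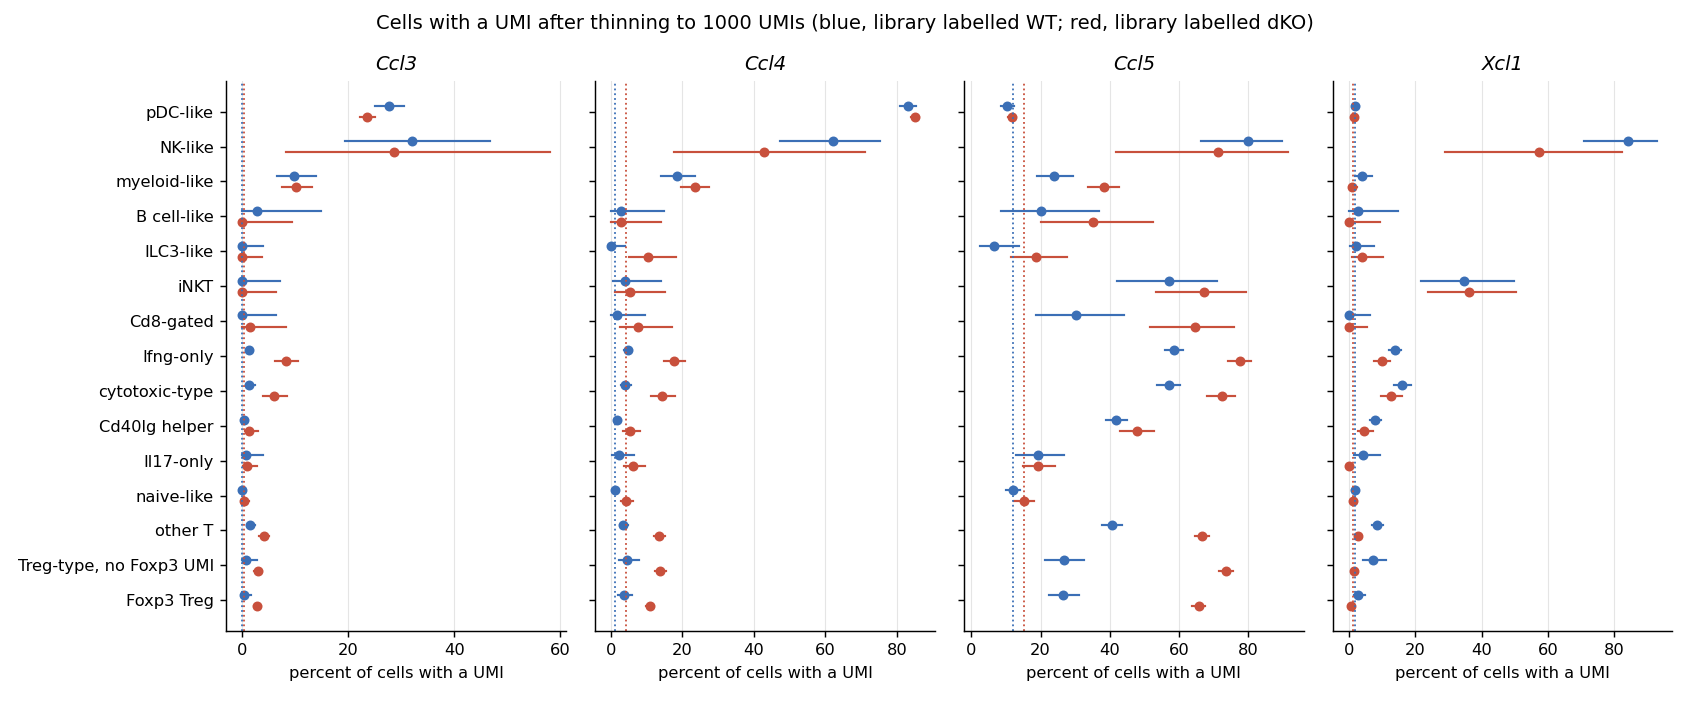
Percent of cells with at least 1 UMI of each chemokine gene after thinning each cell to 1000 UMIs, by cell class and library, with exact 95% Clopper-Pearson intervals. The dotted lines mark the share in naive-like cells of the same library. In Foxp3 Tregs the share with *Ccl5* was 26.5% (WT) and 65.8% (dKO), both above the lines at 11.9% and 15.2%. The share labelled WT lay within the interval of B cell-like cells of that library.

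Against this background, Foxp3 Tregs had *Ccl5* in 26.5% (22.3 to 31.0) of 419 thinned WT cells and in 65.8% (63.9 to 67.5) of 2716 thinned dKO cells. The share labelled WT lay within the interval of B cell-like cells of that library, and the share labelled dKO lay above the interval of its B cell-like cells. Without thinning *Ccl5* was in 33.1% and 73.8% of Foxp3 Tregs, at medians of 2123.5 and 1575 UMIs. Their share with *Ccl4* was 3.58% (2.02 to 5.84) and 10.9% (9.79 to 12.2), and its interval overlapped that of naive-like cells (0.661 to 2.11) in the library labelled WT and lay above it (2.89 to 6.27) in the library labelled dKO. *Ccl3* was in 0.477% (0.0579 to 1.71) and 2.87% (2.28 to 3.57). *Xcl1* was in 2.86% (1.49 to 4.95) and 0.700% (0.422 to 1.09), of which the first overlapped the naive-like interval and the second lay between the naive-like shares found with 2 markers (1.29%) and with 3 (0.509%), with intervals that overlapped both. Ifng-only cells had *Ccl5* in 58.6% and 77.6%, *Ccl4* in 4.77% and 17.7%, *Ccl3* in 1.41% and 8.26% and *Xcl1* in 14.0% (12.2 to 15.8) and 9.91% (7.75 to 12.4). Il17-only cells had *Ccl5* in 19.3% of cells in both libraries, with intervals that overlapped those of naive-like cells.

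The main comparison asked how the members differed between the library labelled dKO and the library labelled WT. Over all T cells, *Ccl3*, *Ccl4* and *Ccl5* were higher and *Xcl1* was lower in the library labelled dKO. *Ccl3* was at 18.8 CPM (313 UMIs) in the library labelled WT and 86.2 CPM (1788 UMIs) in the library labelled dKO, a log2 ratio of 2.20 (2.02 to 2.37). *Ccl4* was at 78.7 CPM (1310 UMIs) and 506 CPM (10508 UMIs), a log2 ratio of 2.69 (2.60 to 2.77). *Ccl5*, the most abundant of the 4, was at 1679 CPM (27963 UMIs) and 6761 CPM (140319 UMIs), a log2 ratio of 2.01 (1.99 to 2.03). *Xcl1* was at 190.0 CPM (3164 UMIs) and 61.5 CPM (1276 UMIs), a log2 ratio of -1.63 (-1.72 to -1.53). So 3 of the 4 members were past 2-fold higher, where 6.66% of the 13309 genes with at least 20 UMIs were, and 1 was past 2-fold lower, where 6.09% were. With 1 cell per clonotype, among cells with both chains, *Ccl3* was no longer past 2-fold (0.41, from 76 and 79 UMIs), and *Ccl4* and *Ccl5* were at 1.3 and 1.53. The classes are unequal in number between the libraries (474 and 3300 Foxp3 Tregs, 1626 and 783 Ifng-only cells), so the values within classes follow.

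Within Foxp3 Tregs, *Ccl4* was at 40.5 CPM (55 UMIs) and 348 CPM (2413 UMIs), a log2 ratio of 3.10 (2.72 to 3.52), and *Ccl5* at 847 and 4060.0 CPM, a ratio of 2.26 (2.18 to 2.35). *Xcl1* was at 67.7 and 18.5 CPM, a ratio of -1.88 (-2.27 to -1.47). These 3 were past 2-fold, as were 11.5% of genes in this class in either direction. *Ccl3* was at 22.1 and 39.2 CPM, a ratio of 0.83 (0.28 to 1.42). Of the 30 *Ccl3* UMIs of Foxp3 Tregs labelled WT, 22 were in 1 cell of a clone, and the ratio moved to 2.64 without clones of more than 5 cells, to -0.40 when at least 2 *Foxp3* UMIs were asked for, and to -0.53 among cells with a TRB contig. No direction can be read from the CPM ratio of *Ccl3* in Tregs. Without the highest cell of each library the levels were 5.90 (WT) and 36.7 CPM (dKO). The share of Foxp3 Tregs with a *Ccl3* UMI was 1.27% (0.466 to 2.73, from 6 cells) and 4.30% (3.64 to 5.05). Treg-type cells without a *Foxp3* UMI (267 and 2464 cells) had *Ccl5* at 895 and 6098 CPM and *Xcl1* at 301 and 49.3 CPM. Of the 227 *Xcl1* UMIs of these cells labelled WT, 132 were in 1 cell, and without that cell the level was 128 CPM (a check added after seeing the data).

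Within Ifng-only cells, *Ccl3* was at 25.7 CPM (111 UMIs) and 460.5 CPM (673 UMIs), a log2 ratio of 4.16 (3.87 to 4.47). *Ccl4* was at 128 and 1798 CPM, a ratio of 3.82 (3.68 to 3.95), and *Ccl5* at 2555 and 14003 CPM, a ratio of 2.45 (2.42 to 2.49). These 3 genes were past 2-fold, as were 8.75% of genes. *Xcl1*, at 277 and 202 CPM, had a ratio of -0.46 (-0.64 to -0.27), which was not past 2-fold. Its ratio was -1.70 with 1 cell per clonotype and 0.23 when at least 2 *Ifng* UMIs were asked for. With 1 cell per clonotype, among cells with both chains, the ratios of *Ccl3*, *Ccl4* and *Ccl5* in this class were 1.96, 1.87 and 2.06. Cells with both chains are a minority of each library, so these values differ from the others in 2 choices. Without clones of more than 5 cells, and with all other cells kept, the ratios of *Ccl3* and *Ccl4* in this class were 3.68 and 3.34.

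**Figure D3:**
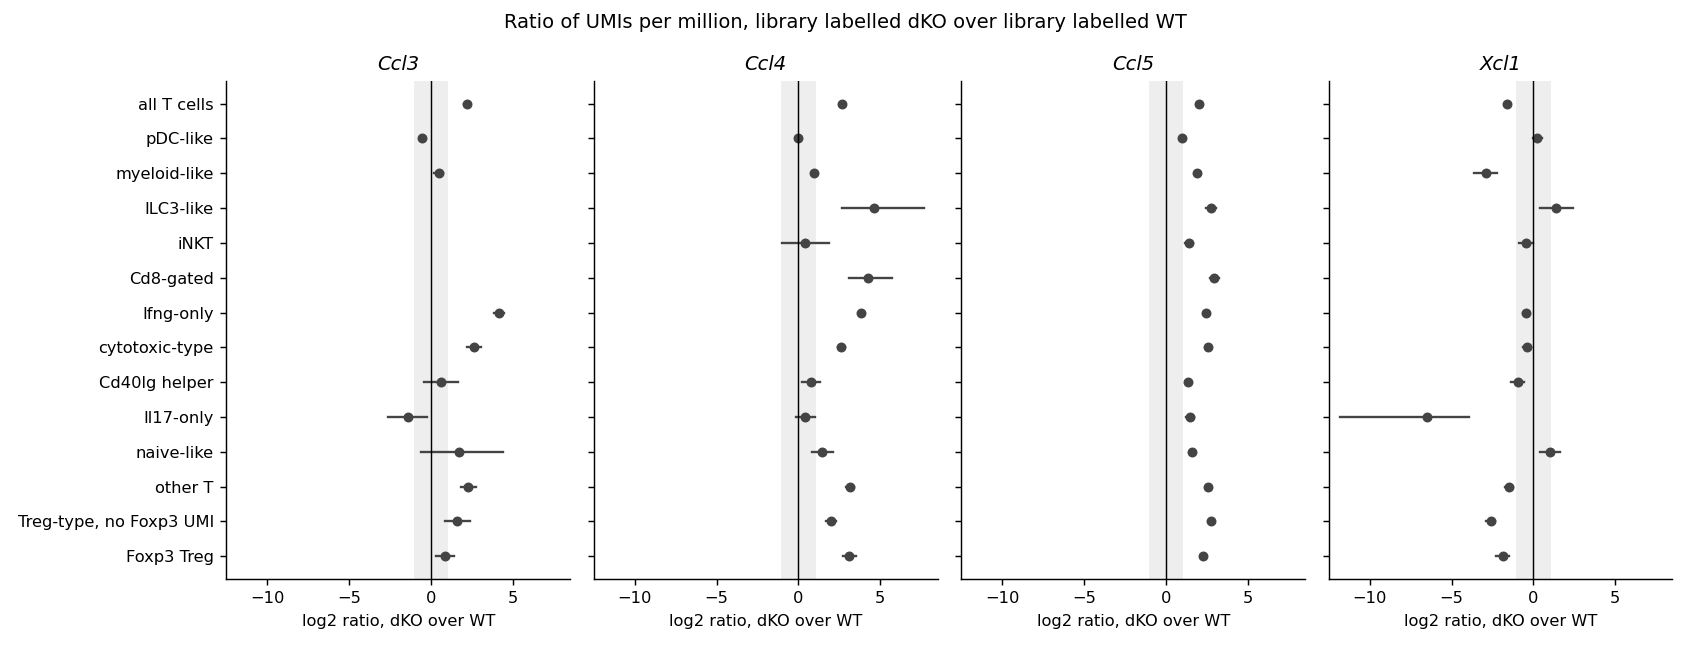
Log2 ratio of CPM, library labelled dKO over library labelled WT, of each chemokine gene in every class with at least 50 cells in both libraries, with exact 95% conditional binomial intervals. The grey band covers ratios within 2-fold. *Ccl5* lay to the right of 0 in every class drawn, from 0.98 in pDC-like cells to 2.95 in Cd8-gated cells, and *Ccl4* in pDC-like cells lay at -0.01.

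*Ccl5* was higher in the library labelled dKO in every class with at least 50 cells in both libraries, with ratios from 0.98 in pDC-like to 2.95 in Cd8-gated cells. It was also higher in naive-like cells, by 1.61 (1.48 to 1.74), and in B cell-like cells (36 and 187 UMIs), by 2.30 (1.78 to 2.86). *Ccl4* was higher in naive-like cells too, by 1.46 (0.84 to 2.08). Free RNA was judged in naive-like cells, and its part in these and the other ratios was not tested. In pDC-like cells *Ccl4* had a ratio of -0.01 (-0.03 to 0.00), while it was higher by 2.61 in cytotoxic-type and by 3.16 in the T cells in no other class. *Ccl3* was lower in pDC-like cells, by a ratio of -0.54 (-0.61 to -0.47). *Xcl1* was lower in cytotoxic-type (-0.38) and Cd40lg helper cells (-0.97), and in Il17-only cells, where 45 UMIs stood against 1. The ratio of those counts was -6.50 with an interval from -11.8 to -3.95. In iNKT cells the *Xcl1* ratio was -0.46, but 37 of the 121 UMIs labelled WT were in 1 cell. Without the highest cell of each library the levels were 631 and 599 CPM, and 50% and 52.7% of the cells had a UMI.

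Markers of the other cell types were read beside these results. The 7 pDC-like markers together were at 25.7 and 32.5 CPM in T cells, 0.266% and 0.366% of their level in pDC-like cells, and at 41.6 and 40.2 CPM in naive-like cells, and all 7 had UMIs in T cells of both libraries. In Ifng-only cells they were at 17.6 and 36.9 CPM, with *Klra17* at 0 in both libraries. The 6 NK-like markers together were at 66.7 and 64.0 CPM in T cells, at 67.0 and 32.9 CPM in Foxp3 Tregs and at 74.3 and 124 CPM in Ifng-only cells. In Foxp3 Tregs labelled dKO *Klra8* and *Klra4* were at 0. The part of these cells in the chemokine ratios was not tested. Among cells with a TRB contig alone, the ratios over all T cells were 1.99 for *Ccl3*, 3.21 for *Ccl4*, 1.95 for *Ccl5* and -1.28 for *Xcl1*.

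Foxp3 Tregs were then compared with Ifng-only cells within each library. In the library labelled WT, Tregs were lower in *Ccl4* (log2 ratio -1.66, -2.08 to -1.25), *Ccl5* (-1.59, -1.68 to -1.50) and *Xcl1* (-2.03, -2.35 to -1.73), 3 members past 2-fold where 8.43% of genes were. For *Ccl3* the ratio was -0.22 with an interval from -0.85 to 0.37. Tregs labelled dKO were lower in all 4, by -3.55 for *Ccl3*, -2.37 for *Ccl4*, -1.79 for *Ccl5* and -3.45 for *Xcl1*, where 11.1% of genes were past 2-fold. Conventional T cells are all T cells outside the iNKT, Cd8-gated, Foxp3 Treg and Treg-type classes. Of the 6047 labelled dKO, 3163 were T cells in no other class. Against all conventional T cells in place of Ifng-only cells, *Ccl4* in Tregs was no longer past 2-fold in either library (-0.99 and -0.85). Foxp3 Tregs labelled dKO nevertheless held more *Ccl5*, at 4060.0 CPM, than Ifng-only cells labelled WT, at 2555 CPM.

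Within the Foxp3 Tregs of the library labelled dKO, *Ccl4* and *Ccl5* varied with other transcripts. Tregs with a UMI of *Il10*, an anti-inflammatory cytokine, had *Ccl4* at 724 CPM (684 to 767) and *Ccl5* at 5172 CPM in 687 cells, against 231 CPM (219 to 245) and 3716 CPM in the 2613 others. Tregs with the resting markers had *Ccl5* at 1671 CPM and *Ccl4* at 85.9 CPM in 233 cells, against 4447 and 390.4 CPM in the 3067 others. Proliferating Tregs (194 cells) had *Ccl5* at 1439 CPM against 4574 CPM in the others, while *Ccl4* was 378 and 342 CPM. *Xcl1* had 0 UMIs in them, which allows up to 2.6 CPM at 3 UMIs. Tregs with *Il1rl1*, the IL-33 receptor, had *Ccl5* at 1867 CPM against 4421 CPM, with *Ccl4* at 328 and 351 CPM. Tregs with *Areg* had *Ccl5* at 3143 CPM against 4791 CPM. Cells of these subsets differ in depth, with medians of 3446 UMIs in resting and 5272.5 UMIs in proliferating Tregs against 1502 and 1507 in the others. In the library labelled WT the resting Tregs had *Ccl5* at 699 CPM and the others at 943 CPM, and the 29 Tregs with *Il10* had it at 897 CPM against 844 CPM. These 29 cells had 0 UMIs of *Ccl4*, which allows up to 36.4 CPM at 3 UMIs, against 43.1 CPM in the others. In conventional T cells labelled dKO, proliferating cells had more *Ccl3* (363 against 108 CPM) and *Ccl4* (1252 against 561 CPM) and less *Ccl5* (4492 against 9656 CPM) than the others. In the library labelled WT, proliferating conventional cells had less *Ccl4* (35.1 against 87.6 CPM) and less *Ccl5* (987 against 1945 CPM), and *Ccl3* was at 16.0 and 19.2 CPM with overlapping intervals.

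The UMIs were unevenly spread over cells. Of the T cells with *Ccl5*, those labelled WT had a mean of 7.61 UMIs and at most 100, and those labelled dKO had a mean of 17.3 UMIs and at most 602. *Ccl5* cells with at least 10 UMIs numbered 887 and 3229 and held 66.2% and 86.2% of the *Ccl5* UMIs. *Ccl4* was found in fewer cells. Of the 485 Foxp3 Tregs labelled dKO with *Ccl4*, 254 had 1 UMI, while the 56 with at least 10 held 61.9% of the *Ccl4* UMIs. In Ifng-only cells labelled dKO, the 10 cells highest in *Ccl3* held 63.7% of its UMIs, with up to 114 UMIs in 1 cell, and the 10 highest in *Ccl4* held 53.8%, with up to 395 UMIs. *Ccl3* in Foxp3 Tregs labelled dKO was spread more evenly, with 94 of 142 positive cells at 1 UMI and 31.6% of its UMIs in the 10 highest cells. The mean *Xcl1* per positive T cell was 3.07 and 2.99 UMIs in the 2 libraries.

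*Ccl3* and *Ccl4* tended to be found in the same cells. After thinning, *Ccl4* was in 63.3% (55.7 to 70.4) of the 177 conventional T cells with *Ccl3* in the library labelled dKO, against 9.57% of those without. In the library labelled WT it was in 45.6% (32.4 to 59.3) of 57 against 2.75%. In Foxp3 Tregs labelled dKO it was in 50% (38.5 to 61.5) of 78 against 9.78%. *Ccl5* was likewise in 84.9% of conventional cells with *Ccl4* labelled dKO against 53.0% of those without, and in 68.9% against 41.4% in the library labelled WT. *Xcl1* differed between the libraries. It was in 24.6% (18.5 to 31.5) of conventional cells with *Ccl4* against 9.10% of those without in the library labelled WT, and in 3.44% (2.05 to 5.37) against 4.88% in the library labelled dKO. Cells with *Nr4a1* UMIs were compared in the same way. In Foxp3 Tregs labelled dKO, *Ccl5* was in 61.9% (59.6 to 64.1) of cells with *Nr4a1* and in 73.6% (70.6 to 76.4) of cells without it. The order was the reverse in conventional T cells labelled WT, at 45.5% (43.4 to 47.6) with *Nr4a1* and 40.3% (38.7 to 41.9) without, and in pDC-like cells labelled dKO, at 13.2% and 10.1%. In conventional T cells labelled dKO the shares were 55.0% and 58.8%, with intervals that overlapped. All cells of such a pair come from 1 library, and these shares are descriptions of it.

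Clones were defined by the same CDR3 nucleotides of the TRA and the TRB contig with the most UMIs. There were 29 clones of more than 5 cells in the library labelled WT (476 cells) and 35 in the library labelled dKO (690 cells). A clone was called Treg where at least 10% of its cells had a *Foxp3* UMI, which gave 3 Treg and 26 conventional clones labelled WT, and 26 Treg and 9 conventional clones labelled dKO. Cells of a clone share 1 ancestor and are not replicates. Receptors are shown for the 5 clones with the most *Ccl5* (5, 12, 3, 9 and 28 labelled dKO), some of which share a chain, and for the largest clone, clone 1. Each line gives the CDR3 region as the deposited contigs have it, with its opening Cys codon and closing Phe codon in capitals.
dKO clone 5, TRB: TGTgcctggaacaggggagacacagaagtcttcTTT
dKO clone 12, TRB: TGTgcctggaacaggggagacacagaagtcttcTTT
dKO clone 5, TRA: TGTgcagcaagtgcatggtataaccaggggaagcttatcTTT
dKO clone 12, TRA: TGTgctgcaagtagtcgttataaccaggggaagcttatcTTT
dKO clone 3, TRB: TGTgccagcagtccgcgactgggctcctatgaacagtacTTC
dKO clone 9, TRB: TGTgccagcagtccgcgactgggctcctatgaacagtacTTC
dKO clone 28, TRB: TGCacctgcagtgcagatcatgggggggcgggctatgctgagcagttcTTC
dKO clone 1, TRB: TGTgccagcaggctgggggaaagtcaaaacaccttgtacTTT
Clones 5 and 12 share their TRB and differ in their TRA, and of their 39 cells 0 had both TRA contigs. Clones 3 and 9 share a TRB as well, and of their 49 cells 4 had both TRA contigs. Clones 3 and 7 labelled WT, called conventional and Treg, share a TRB, with both TRA contigs in 12 of 55 cells. Clones that share a TRB are counted apart here, and whether they have the same ancestor was not tested.

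The highest *Ccl5* and *Ccl4* levels among clones defined by both chains were in conventional clones of the library labelled dKO. Their *Ccl5* level had a median of 25824 CPM and a range from 1007 to 76015 CPM, and 7 of 9 were over 10000 CPM. Clone 12 (14 cells) was at 76015 CPM (73047 to 79072), clone 28 (7 cells) at 75871 CPM, clone 5 (25 cells) at 64433 CPM, clone 3 (33 cells) at 31261 CPM and clone 9 (16 cells) at 25824 CPM. In each of these 5 clones every cell had *Ccl5*, with medians of 169, 105, 138, 87 and 89.5 UMIs per cell. Conversely, clone 26 (7 cells) was at 1007 CPM with all of its 15 UMIs in 1 cell. The 26 conventional clones labelled WT had a median of 1561 CPM of *Ccl5*, from 0 UMIs in clone 29 (6 cells, which allows up to 91.0 CPM at 3 UMIs) to 8104 CPM in clone 11 (16 cells), and none was over 10000 CPM. The highest clone labelled WT was thus below 7 of the 9 conventional clones labelled dKO. These counts depend on how a clone is defined. By the TRB alone, 8 of 18 conventional clones labelled dKO were over 10000 CPM, with a median of 9125 CPM, against 1 of 56 labelled WT, which was at 11717 CPM. Pooled over those clones, *Ccl5* was at 29710 CPM (dKO) and 2575 CPM (WT).

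**Figure D4:**
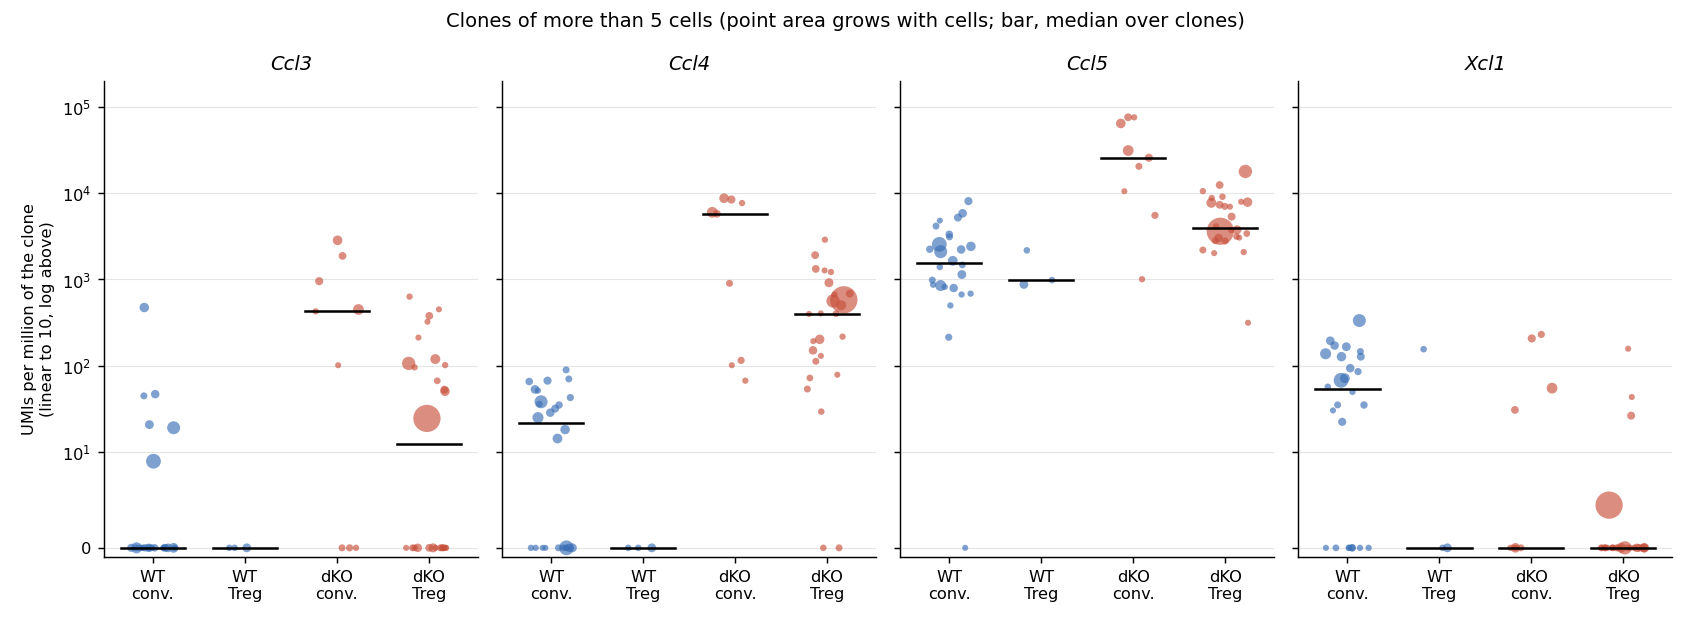
Level of each chemokine gene in CPM (axis linear near 0 and logarithmic above) in every clone of more than 5 cells, as points, for conventional and Treg clones of each library. The bar is the median over clones, and points at 0 are clones without a UMI. Clones are defined by both chains. Of the 9 conventional clones labelled dKO, 7 lie above 10000 CPM of *Ccl5*, and no clone labelled WT does; by the TRB alone it was 8 of 18 and 1 of 56.

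*Ccl4* followed the same clones. It was at 8751 CPM in clone 5, 8464 CPM in clone 9, 7694 CPM in clone 28, 6010 CPM in clone 3 and 5781 CPM in clone 12, with the transcript in 68.8% to 85.7% of their cells. The other 4 conventional clones labelled dKO were between 67.2 and 902 CPM. The conventional clones labelled WT had a median of 21.6 CPM and a maximum of 89.5 CPM. The dKO median of *Ccl4*, 5781 CPM, moved to 902 CPM when Treg clones were called at 20%, and to 102 CPM for clones by the TRB alone, where the WT median was 6.31 CPM. *Ccl3* was at 2844 CPM in clone 5 and 1876 CPM in clone 12, the clones with the shared TRB, and at 956 CPM in clone 9, and it had 0 UMIs in 3 of the 9. In 20 of the 26 conventional clones labelled WT it had 0 UMIs, and the highest of them, clone 5 of that library at 473 CPM, had its 26 UMIs in 2 cells. *Xcl1* had 0 UMIs in 5 of the 9 conventional clones labelled dKO and in 8 of the 26 labelled WT. Pooled over these clones it was at 73.1 (46.8 to 109) and 102 (84.8 to 122) CPM, with intervals that overlapped, and at 129 CPM in both libraries for clones by the TRB alone. In Treg clones labelled dKO it had 0 UMIs in 22 of 26. Clone 2 labelled WT (51 cells) had the highest level, 334 CPM (35 UMIs in 11 cells), and the largest clone labelled dKO (246 cells) had 2 UMIs.

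Treg clones labelled dKO had lower medians of *Ccl5* and *Ccl4* than conventional clones when both chains defined a clone. In the 26 Treg clones labelled dKO *Ccl5* had a median of 3950.5 CPM and a range from 315 to 17884 CPM, and *Ccl4* a median of 400.2 CPM. By the TRB alone their *Ccl4* median, 156 CPM, lay above the 102 CPM of conventional clones, and their highest *Ccl5* level was 47615 CPM. Clone 1, the largest (246 cells, 39.4% of them with *Foxp3*), was at 3626 CPM (3452 to 3806) of *Ccl5* and 582 CPM of *Ccl4*, with *Ccl5* in 78.0% of cells and *Ccl4* in 19.9%. Clone 2 (54 cells) was at 17884 CPM of *Ccl5*, and clones 13 and 25 were also over 10000 CPM. The 3 Treg clones labelled WT were at 877, 985 and 2178 CPM of *Ccl5* and had 0 UMIs of *Ccl3* and *Ccl4*. By the TRB alone there were 4 Treg clones labelled WT, with 2 UMIs of *Ccl3* and 72 of *Ccl4*, of which 98.6% were in 1 clone. Each of the 3 was called Treg on 1 or 2 cells with *Foxp3*, and with a limit of 20% there were 0 Treg clones labelled WT and 24 labelled dKO.

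Over clone sizes, *Ccl5* was higher in clones of more than 5 cells than in cells seen once in both libraries. In conventional T cells labelled WT it was 1057 CPM in cells whose receptor was seen once, 1733 CPM in clones of 2 to 5 cells and 2297 CPM in clones of more than 5. In those labelled dKO it was 2360.3, 5525 and 26912 CPM. Cells were sorted here by their own class and not by the kind of their clone. The 247 conventional cells labelled dKO in clones of more than 5 came from 28 clonotypes. Only 9 clones of that size were called conventional, so cells of clones called Treg are among the 247. Foxp3 Tregs and Treg-type cells together had 601, 1353 and 1766 CPM in the library labelled WT and 2377, 2630.3 and 6601 CPM in the library labelled dKO. The intervals of the last 2 WT values (1186 to 1537 and 1457 to 2122, the latter from 19 cells) overlapped. By CPM, *Ccl3* and *Ccl4* in conventional cells labelled dKO were highest in clones of more than 5 cells. In those labelled WT they were highest in cells seen once. *Ccl3* was 21.4, 11.5 and 742 CPM (dKO) against 22.5, 5.9 and 10.2 CPM (WT). *Ccl4* was 123, 426 and 3266 CPM against 77.3, 55.0 and 20.5 CPM. The share of cells with *Ccl4* was 8.54%, 8.42% and 38.1% (dKO) and 4.37%, 5.95% and 4.62% (WT). With *Ccl3* it was 2.24%, 1.98% and 19.0% (dKO) and 1.81%, 1.49% and 1.54% (WT). In WT cells seen once, the 213 *Ccl4* UMIs lay in 41 cells and the 62 *Ccl3* UMIs in 17. *Xcl1* was 93.8, 32.2 and 24.5 CPM in conventional cells labelled dKO, and 161, 249.6 and 95.5 CPM in those labelled WT. In cells seen once, the intervals of *Ccl3* in conventional cells overlapped between the libraries (13.5 to 32.0 and 17.2 to 28.8 CPM).

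**Figure D5:**
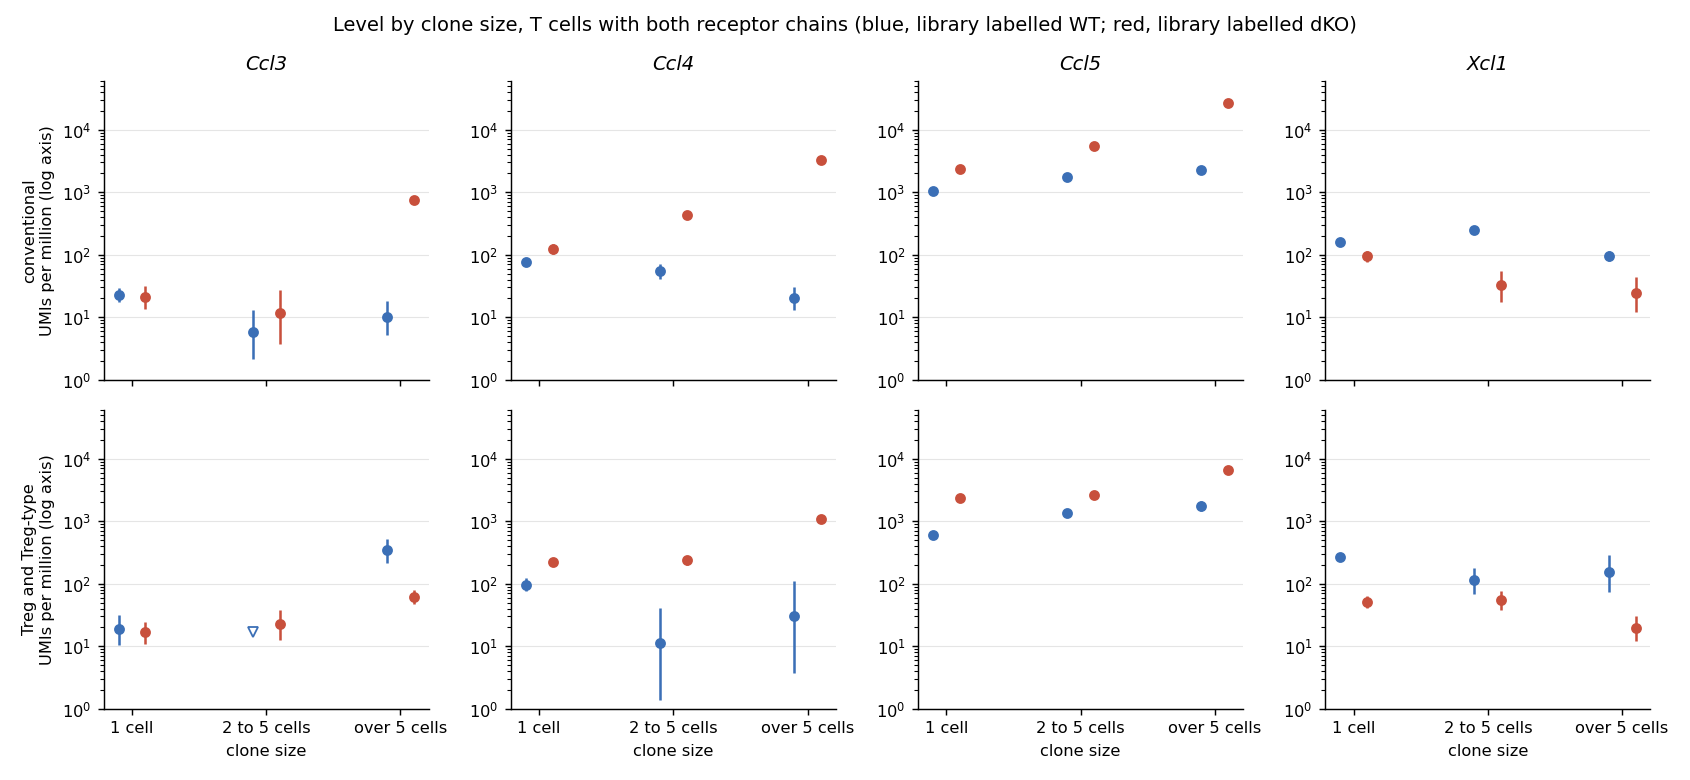
Level of each chemokine gene in CPM (log axis) in cells with both chains, by the number of cells in their clone (1, 2 to 5, more than 5), for conventional T cells and for Tregs of each library, with exact 95% Poisson intervals. An open triangle stands for 0 UMIs and is drawn at the level of 3 UMIs. Cells are sorted by their own class and not by the kind of their clone. *Ccl5* in conventional cells labelled dKO went from 2360.3 to 26912 CPM, and in those labelled WT from 1057 to 2297 CPM.

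Receptors of these chemokines were read from a fixed list of 5, and 4 of its genes are given here. Over all T cells 4 of the 5 had enough UMIs. Of those, 3 were past 2-fold higher in the library labelled dKO and 0 lower, with a median of 2.31. The shares of all genes were 6.66% and 6.09%. *Ccr1* was at 2.58 CPM in T cells labelled WT and 18.0 CPM in those labelled dKO, a log2 ratio of 2.80, and *Ccr3* at 4.44 and 44.9 CPM, a ratio of 3.34. *Xcr1* was at 2.88 and 4.0 CPM, a ratio of 0.47 (-0.06 to 1.02), and *Ackr2*, a scavenger of chemokines, had 0 UMIs. In Foxp3 Tregs and Ifng-only cells labelled dKO, *Ccr1* was at 29.3 and 7.53 CPM, *Ccr3* at 63.0 and 13.7 CPM and *Xcr1* at 5.05 and 3.42 CPM. In those labelled WT, *Ccr1* was at 12.5 and 0.694 CPM (17 and 3 UMIs), *Ccr3* at 33.9 and 0.694 CPM (46 and 3 UMIs), and *Xcr1*, which went the other way, had 0 and 22 UMIs. Within Foxp3 Tregs the ratio between the libraries was thus 1.23 (0.51 to 2.03) for *Ccr1* and 0.90 (0.46 to 1.37) for *Ccr3*, the latter not past 2-fold. Of the 4 list genes with enough UMIs in Foxp3 Tregs, 3 were past 2-fold higher and 0 lower. In either direction 11.5% of all genes were past 2-fold in this class.

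Of the 12 other chemokines of a fixed list, 8 had enough UMIs in T cells, 2 were past 2-fold higher (6.66% of all genes were) and 0 lower (6.09%), with a median of 0.53 against -0.03 over all genes tested. *Cxcl9*, an interferon-induced ligand of Cxcr3, was at 0.42 and 2.36 CPM and *Cx3cl1*, the ligand of Cx3cr1, at 0.72 and 2.17 CPM, both at low counts. *Cxcl10* was at 61.5 and 83.3 CPM and *Ccl1* at 37.5 and 30.4 CPM.

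Of the 10 effector genes, 2 were past 2-fold higher over all T cells and 6 lower, with a median of -1.25, beside 6.66% and 6.09% of all genes. *Gzmk* (30.8 and 112 CPM) and *Gzmb* (67.9 and 226 CPM), which encode granzymes, were higher. *Ifng* (257 and 83.8 CPM), *Tnf* (77.1 and 37.1 CPM), *Il2* (34.8 and 10.7 CPM), *Csf2*, *Gzma* (35.0 and 8.43 CPM) and *Fasl* (109.7 and 40.5 CPM) were lower. The balance differed within Ifng-only cells, where 4 of the 10 were past 2-fold higher (*Gzmb*, *Gzmk*, *Prf1* and *Nkg7*) and 1 lower (*Gzma*). The median there was 0.10, beside 8.75% of genes past 2-fold in either direction. *Ifng*, whose UMI defines this class, is among the 10 and in the median, so the balance partly follows the gate. There *Gzmk* was at 44.4 and 297 CPM and *Nkg7*, a granule protein, at 717 and 1682 CPM. *Nkg7* over all T cells was at 494 and 839 CPM (0.76).

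Of 8 regulators, 2 were past 2-fold higher and 0 lower over all T cells, beside 6.66% and 6.09% of all genes. The median of the 8 was -0.20. Those higher were *Eomes*, a T-box factor of cytotoxic lymphocytes (5.95 and 23.9 CPM), and *Batf*, an AP-1 family factor (101 and 211 CPM). *Eomes* is also among the NK-like markers. *Tbx21*, the T-box factor of Th1 cells, was at 125 and 83.7 CPM, and *Klf13*, a regulator of *Ccl5* in T cells, at 208 and 186 CPM. Of 10 activation genes, *Nr4a1*, *Nr4a2* and *Tnfrsf9* (108 and 739 CPM) were past 2-fold higher and 0 lower, beside 6.66% and 6.09% of genes. The median of the 10 was -0.09. *Egr1* (92.2 and 84.4 CPM), *Egr2* (3.66 and 3.52 CPM) and *Nr4a3* (300.5 and 294 CPM), which respond to receptor signals, differed little.

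The genes whose pattern was most like each member were found by Pearson's r of log2(CPM + 10) over 20 profiles (10 T cell classes in each of 2 libraries) among 9160 genes. The profiles share their library, depth and cells, and r is a description. For *Ccl5* they included *Psmb8* (0.90), *Nkg7* (0.89), *Gzmk* (0.88) and *Nr4a2* (0.87). For *Xcl1* they were *Chn2* (0.89), *Klrc1* (0.89), *Clcf1*, *Il12rb2* and *Klrd1*, with r from 0.73 to 0.94 within the library labelled WT and from 0.86 to 0.96 within the library labelled dKO. For *Ccl3* they were *Gzmk* (0.85), *Spp1* (0.85), *Trps1*, *Plek* and *Eomes*. For *Ccl4* they were *Cst7* (0.86), *Ier5l*, *Tmbim6*, *H2-T23* and *Cd3e*. With a pseudocount of 50, *Trps1* and *Plek* left the 5 of *Ccl3*, *Tmbim6*, *H2-T23* and *Cd3e* those of *Ccl4*, and *Klrc1* and *Clcf1* those of *Xcl1*. *Eomes* and *Ccl3* had an r of 0.34 within the library labelled WT. Among the members, *Ccl3* and *Ccl4* had an r of 0.91 (0.66 within the library labelled WT and 0.95 within the library labelled dKO) and *Ccl4* and *Ccl5* an r of 0.86 (0.55 and 0.84). *Xcl1* had r from -0.04 to 0.12 with the other 3 over all profiles. Within the library labelled WT its r was 0.65 with *Ccl4* and 0.61 with *Ccl5*, and within the library labelled dKO it was 0.01 and 0.40.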

How the data were processed

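Per the labels and the study's methods, hepatic CD4+ T cells of 2 mice per genotype were pooled into 1 droplet library. The counts analysed are UMI counts per gene and cell, deposited by the authors without normalization from Cell Ranger 7.0.1 on mm10; receptor tables list productive contigs. Kept cells had over 200 genes and mitochondrial counts under 5%. UMIs were summed per class and divided by all UMIs of that class (CPM). Classes came from marker gates. A gene was read where 20 UMIs were found in both groups together, and a difference was called at 2-fold. The automatic threshold of Scrublet (scanpy 1.11.5) marked 0 doublets, so the highest scores (0.8% per 1000 cells) and droplets with at least 2 TRB chains were marked (999 and 2486) and left out as an alternative only. TMM factors came from edgeR 4.0.16 in R 4.3.3; the rest was done with SciPy 1.17.1, NumPy 2.4.6, pandas 2.3.3 and matplotlib 3.10.9 in Python 3.11.15. Code was tested on simulated data. The members, gates and lists were chosen with earlier results of these data known. Named were the 4 members, the listed genes and the 5 genes most like each member over classes of at least 50 cells, among genes with at least 200 UMIs; some of these genes are not reported here. Alternatives covered doublets, filters, gates, clones, thinning, scaling and pseudocount.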

Additional observations from a re-analysis of the deposited data

Results flagged for a closer look

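In 4 cases a class moved against the others between the libraries, with intervals that exclude 0 in both directions, and the differences between the classes were not tested. *Ccl3* was lower in the library labelled dKO in Il17-only cells, with a log2 ratio of -1.43 from 16 and 12 UMIs, and in pDC-like cells, with a ratio of -0.54 from 2566 and 6151 UMIs, whereas it was higher in the other classes that moved. *Xcl1* was higher in the library labelled dKO in naive-like cells, with a ratio of 1.0 from 48 UMIs in each library, and in ILC3-like cells, with a ratio of 1.36 from 14 and 28 UMIs, whereas it was lower in the other classes that moved. Single cells carried part of these counts. Of the 16 *Ccl3* UMIs of Il17-only cells labelled WT, 11 were in 1 cell, as were 7 of the 12 labelled dKO. Without the highest cell of each library the levels were 13.2 (WT) and 6.51 CPM (dKO). The share of cells with a UMI was 1.91% and 1.82%, so no direction can be read from so few cells. Of the 28 *Xcl1* UMIs of ILC3-like cells labelled dKO, 15 were in 1 cell of the 4 with a UMI. Without the highest cell of each library the levels were 26.8 (WT) and 56.2 CPM (dKO), while the share of cells with a UMI was 6.8% and 3.96%. ILC3-like cells also had *Cd3e* at 435 (WT) and 622 CPM (dKO), whose part was not tested. In naive-like cells labelled dKO the 48 UMIs lay in 10 cells, and without the highest cell of each library the levels were 18.9 (WT) and 30.7 CPM (dKO), while the share of cells with a UMI was 2.25% and 1.4%. Apart from pDC-like *Ccl3*, all of these rest on under 50 UMIs in each library.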

How the results depend on the processing

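Of the 216 values that 12 alternatives gave for the 20 log2 ratios of the report, 132 moved by less than their counting interval, 84 moved by more and 0 ratios past 2-fold changed sign. Ratios named without a library are dKO over WT, and the words within WT and within dKO stand for Foxp3 Tregs over Ifng-only cells of the library so labelled. The cause of the moves was not tested. Without predicted doublets, *Ccl4* was 2.78 over all T cells and 4.07 in Ifng-only cells; *Ccl5* was -1.85 and *Xcl1* -2.37 within WT, and *Ccl3* was -4.11, *Ccl4* -2.77, *Ccl5* -2.04 and *Xcl1* -4.13 within dKO. With CPM averaged over single cells, *Ccl5* was 1.95 over all T cells, *Ccl3* 0.19 and *Ccl5* 2.51 in Tregs, *Ccl3* 3.71, *Ccl4* 3.47 and *Ccl5* 2.25 in Ifng-only cells, *Ccl5* -1.94 and *Xcl1* -2.39 within WT, and *Ccl3* -3.16, *Ccl4* -2.09 and *Ccl5* -1.69 within dKO. With 1 cell per clonotype, *Ccl3* was 0.41, *Ccl4* 1.3, *Ccl5* 1.53 and *Xcl1* -1.15 over all T cells, *Ccl4* 2.57 and *Ccl5* 2.06 in Tregs, *Ccl3* 1.96, *Ccl4* 1.87, *Ccl5* 2.06 and *Xcl1* -1.70 in Ifng-only cells, *Ccl3* -2.77 and *Ccl5* -1.71 within WT, and *Ccl4* -1.32, *Ccl5* -1.72 and *Xcl1* -2.14 within dKO. Without the largest clone of each library *Ccl5* was 2.03 over all T cells. With gates at 2 UMIs of *Foxp3* or *Ifng*, *Ccl3* was -0.40 and *Ccl4* 4.31 in Tregs, *Ccl3* 5.80, *Ccl4* 4.86, *Ccl5* 2.31 and *Xcl1* 0.23 in Ifng-only cells, *Ccl3* 1.12, *Ccl4* -2.65, *Ccl5* -1.83 and *Xcl1* -2.74 within WT, and *Ccl3* -5.07, *Ccl4* -3.20, *Ccl5* -1.89 and *Xcl1* -4.57 within dKO. Against all conventional T cells in place of Ifng-only cells, *Ccl4* in Tregs was -0.99, *Ccl5* -1.10 and *Xcl1* -1.50 within WT, and *Ccl3* -1.76, *Ccl4* -0.85, *Ccl5* -1.17 and *Xcl1* -2.32 within dKO. TMM scaling shifted the ratios by 0.10 in Ifng-only cells and by 0.02 elsewhere, so that *Ccl5* was 2.56 and, over all T cells, 2.03. The next 3 alternatives were chosen after seeing the data. Among cells with a TRB contig alone, *Ccl3* was 1.99, *Ccl4* 3.21, *Ccl5* 1.95 and *Xcl1* -1.28 over all T cells, *Ccl3* -0.53 and *Xcl1* -2.35 in Tregs, *Ccl4* 4.26 and *Ccl5* 2.68 in Ifng-only cells, *Ccl3* 0.89 and *Ccl4* -1.15 within WT, and *Ccl3* -4.02, *Ccl4* -2.09, *Ccl5* -2.10 and *Xcl1* -3.80 within dKO. Without every clone of more than 5 cells, *Ccl3* was 2.00, *Ccl4* 2.31 and *Ccl5* 1.95 over all T cells, *Ccl3* 2.64 in Tregs, *Ccl3* 3.68, *Ccl4* 3.34 and *Ccl5* 2.18 in Ifng-only cells, *Ccl3* -2.23 and *Ccl5* -1.71 within WT, and *Ccl3* -3.28, *Ccl4* -2.21 and *Ccl5* -1.59 within dKO. Leaving out the 245 barcodes of both libraries moved 0 of the 20 ratios, as did keeping all deposited cells and leaving out droplets low in ribosomal counts. The sign changed for 3 ratios that were not past 2-fold: *Ccl3* in Tregs, *Ccl3* within WT and *Xcl1* in Ifng-only cells. Of the other 105 values (shares of cells and levels of clones) 67 moved. No paired analysis was possible because each genotype has 1 library. A count of 0 in T cells allows 0.18 CPM in the library labelled WT and 0.145 CPM in the library labelled dKO.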
